A study of Mus musculus with 22 samples.

Results

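The genes described here are 35 members of the secretory pathway and the unfolded protein response, of 49671 genes in the deposited table. They were taken by gene name, from a list drawn up with earlier results of these data known: 14 chaperones and folding enzymes of the endoplasmic reticulum (ER), 7 stress sensors and transcription factors, 4 genes of ER-associated degradation, 4 translocon genes and 6 genes of the COPII coat and KDEL receptors. All 35 passed the filter on low values and were tested.

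They were measured by bulk RNA-seq in 22 libraries of mouse primary tumour cell lines, in 11 groups of 2. Creb3l1KO, Pitx1KO, Klf5KO and Nfatc1KO are CRISPR/Cas9 knockout lines, set against a Control line. All lines, Control included, carry the Lgr5CreER driver, p53fl/fl and the Rosa26-YFP reporter. Living mCherry+ YFP+ cells of each line were sorted at day 8 into EPCAM- and EPCAM+ cells, and EPCAM+ Control cells also at day 0. EPCAM is an epithelial surface protein, and its loss marks tumour cells that have left the epithelial state. What sets day 0 is not given in the labels, nor whether a group's 2 libraries are separate cultures or clones of a knockout. The p-values therefore measure only the spread between these samples, which may be technical. The question asked of these genes was how Creb3l1KO cells compare with the other lines.

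As background, proteins that enter the ER are folded by chaperones such as Hspa5 (BiP), given disulfide bonds by protein disulfide isomerases, and shipped to the Golgi in COPII vesicles. When folding falls behind, the sensors IRE1 (Ern1), PERK (Eif2ak3) and ATF6 signal to the nucleus. IRE1 splices Xbp1 mRNA, cleaved ATF6 turns on chaperone genes, and PERK slows translation while it favours the translation of ATF4, whose targets include Ddit3 (CHOP) and Trib3. Creb3l1 (OASIS) is an ER-anchored transcription factor of the CREB3 family, cleaved like ATF6, and known in other tissues for its action on secretory and collagen genes. Only RNA was measured here, so Xbp1 splicing, ATF6 or CREB3L1 cleavage and PERK activity were not.

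The DNA elements through which these factors are known to act were looked for in promoters from RefSeq on GRCm38.p6, 250 bases before to 50 bases after each gene's start, which matched 30 of the 35 members by symbol. Both strands were searched for exact matches. The ER stress response element, ERSE (CCAAT and CCACG with 9 bases of any kind between them), was in 8 of the 30. Of all 27025 gene symbols with a promoter, 0.137% had it. ERSE-II (ATTGG, any base, then CCACG) was in 2, against 0.0444% of all symbols. The unfolded protein response element, UPRE (TGACGTGG), was in 3, all of them genes of vesicle traffic, against 0.714%. The last 5 letters of UPRE are the reverse complement of the last 5 of ERSE. The ATF4 element CARE (TTGCATCA) was in Herpud1 alone, against 1.03%. The members were listed as genes of this response, so a higher share among them is no test. The sites are shown 5′ to 3′ on the strand named because they tell the members apart by element. Capitals mark the motif and lower case 6 flanking bases on each side.
Hspa5 ERSE, chr2:34772019-34772049, plus strand: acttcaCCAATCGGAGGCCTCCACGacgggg
Hsp90b1 ERSE, chr10:86705632-86705662, minus strand: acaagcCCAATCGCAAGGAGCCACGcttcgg
Hsp90b1 ERSE, chr10:86705527-86705557, plus strand: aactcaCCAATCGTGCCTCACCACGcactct
Calr ERSE, chr8:84847069-84847099, plus strand: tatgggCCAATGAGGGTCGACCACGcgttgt
Canx ERSE, chr11:50325794-50325824, minus strand: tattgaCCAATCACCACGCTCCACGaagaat
Pdia6 ERSE, chr12:17266485-17266515, plus strand: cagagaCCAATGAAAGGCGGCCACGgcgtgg
Dnajc3 ERSE, chr14:118937821-118937851, plus strand: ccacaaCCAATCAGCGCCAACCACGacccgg
Creld2 ERSE, chr15:88819514-88819544, minus strand: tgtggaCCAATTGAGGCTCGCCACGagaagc
Syvn1 ERSE, chr19:6046526-6046556, plus strand: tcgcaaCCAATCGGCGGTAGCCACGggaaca
Herpud1 ERSE-II, chr8:94386371-94386393, plus strand: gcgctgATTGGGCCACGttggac
Dnajb11 ERSE-II, chr16:22857846-22857868, plus strand: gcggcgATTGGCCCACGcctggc
Sec24d UPRE, chr3:123267464-123267483, plus strand: ggcgccTGACGTGGcactag
Sec23a UPRE, chr12:59011998-59012017, minus strand: ccccttTGACGTGGcagagg
Kdelr3 UPRE, chr15:79516372-79516391, minus strand: gcgcggTGACGTGGcggggc

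The promoters of 4 members on which the comparisons below turn are shown whole, with ERSE or UPRE in capitals. Hspa5 carries an ERSE whose first base lies at -65 and last at -47 from the start base. Sec24d carries a UPRE from -26 to -19. No exact match to ERSE, ERSE-II or UPRE occurred in the windows of Pdia3 and Ssr1. Near matches were not searched for, and the result says nothing about whether the factors bind there.
Hspa5 promoter, chr2:34771840-34772139, plus strand: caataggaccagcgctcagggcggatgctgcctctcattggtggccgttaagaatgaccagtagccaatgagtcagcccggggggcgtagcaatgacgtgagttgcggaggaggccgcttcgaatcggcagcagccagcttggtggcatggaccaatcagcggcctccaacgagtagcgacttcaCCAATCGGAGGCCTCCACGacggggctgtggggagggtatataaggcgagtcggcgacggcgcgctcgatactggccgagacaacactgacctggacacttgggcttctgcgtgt
Pdia3 promoter, chr2:121413652-121413951, plus strand: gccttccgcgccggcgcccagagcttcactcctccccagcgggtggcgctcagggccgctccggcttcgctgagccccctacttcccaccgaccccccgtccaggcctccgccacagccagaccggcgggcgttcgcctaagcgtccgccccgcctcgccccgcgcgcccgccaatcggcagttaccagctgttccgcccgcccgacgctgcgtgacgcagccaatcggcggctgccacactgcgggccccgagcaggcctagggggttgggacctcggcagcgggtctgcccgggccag
Ssr1 promoter, chr13:37994159-37994458, minus strand: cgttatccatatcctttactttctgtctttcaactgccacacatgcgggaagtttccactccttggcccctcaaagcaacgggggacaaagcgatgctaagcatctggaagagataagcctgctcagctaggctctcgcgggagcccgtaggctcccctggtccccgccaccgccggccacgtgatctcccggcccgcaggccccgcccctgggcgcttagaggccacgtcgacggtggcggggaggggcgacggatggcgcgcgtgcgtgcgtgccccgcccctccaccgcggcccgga
Sec24d promoter, chr3:123267246-123267545, plus strand: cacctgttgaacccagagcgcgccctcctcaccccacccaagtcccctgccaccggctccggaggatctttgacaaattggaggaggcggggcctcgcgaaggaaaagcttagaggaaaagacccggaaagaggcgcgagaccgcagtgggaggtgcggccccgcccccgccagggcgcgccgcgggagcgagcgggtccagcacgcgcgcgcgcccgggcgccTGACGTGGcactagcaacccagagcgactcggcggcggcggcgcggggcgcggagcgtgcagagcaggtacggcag

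Values are the authors' normalised counts, which by their steps and totals were read counts scaled to 20007331 to 20014236 units per library. The step that stands for 1 read was 2.02 to 3.30 units, so libraries held 6054932 to 9882748 reads in genes. They detected 20184 to 22616 genes, and mitochondrially encoded genes took 1.56 to 2.84% of a library. Differences were tested with limma on log2(value + 1) over all 22 libraries and 19569 genes, with Benjamini-Hochberg adjustment over all of them. A gene was called at an adjusted p below 0.05. The 2 fractions of a line with the same replicate number may share a culture. Comparisons of lines over both fractions count them as separate libraries, so SE, intervals and p-values there may be too small. In pairs of values replicate 1 stands before replicate 2. Errors are SD unless named SE.

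The labels were checked first. Creb3l1 itself was near the limit of detection in nearly every library. It stood at 6 and 0 units in EPCAM- and 3 and 0 in EPCAM+ Creb3l1KO cells, against 137 and 26 in EPCAM- and 0 and 0 in EPCAM+ Control cells. The difference in EPCAM- cells, a log2 change of -4.53, was not called (limma, adjusted p = 0.213), so the RNA does not check this knockout. Libraries of the other 3 knockout lines held at most 8 units of Creb3l1. Epcam was lower in EPCAM- cells by a log2 change of -4.07 (adjusted p = 3.85e-07), in the direction of the sort, and Vim was higher by 2.29 (adjusted p = 5.57e-06).

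Per kilobase of exon, the members with the highest levels were chaperones and folding enzymes. Others of that set were low, down to 207 units per kb for Dnajb9. Pdia3, a disulfide isomerase for glycoproteins, averaged 6700 units per kb over the 22 libraries, Hsp90b1 (GRP94) 4829 and Hspa5 4788. The lectin chaperones Calr and Canx averaged 4103 and 3584 units per kb. Atf4 was the most abundant of the stress regulators, at 3323 units per kb, while the sensors Ern1 and Eif2ak3 stood at 146 and 151, beside Kdelr3, which returns escaped ER proteins, at 152. Levels of single genes varied by 1.35-fold (Ssr3) to 6.30-fold (Dnajb9) between the lowest and the highest library. The widest after Dnajb9, a co-chaperone of Hspa5, were Trib3 at 5.96-fold, Ddit3 at 4.65-fold and Eif2ak3 at 4.25-fold. Exons of 12 members overlap those of another gene, on the opposite strand in 11 of them, and whether reads were counted by strand is not given in the sources used here.

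**Figure D1:**
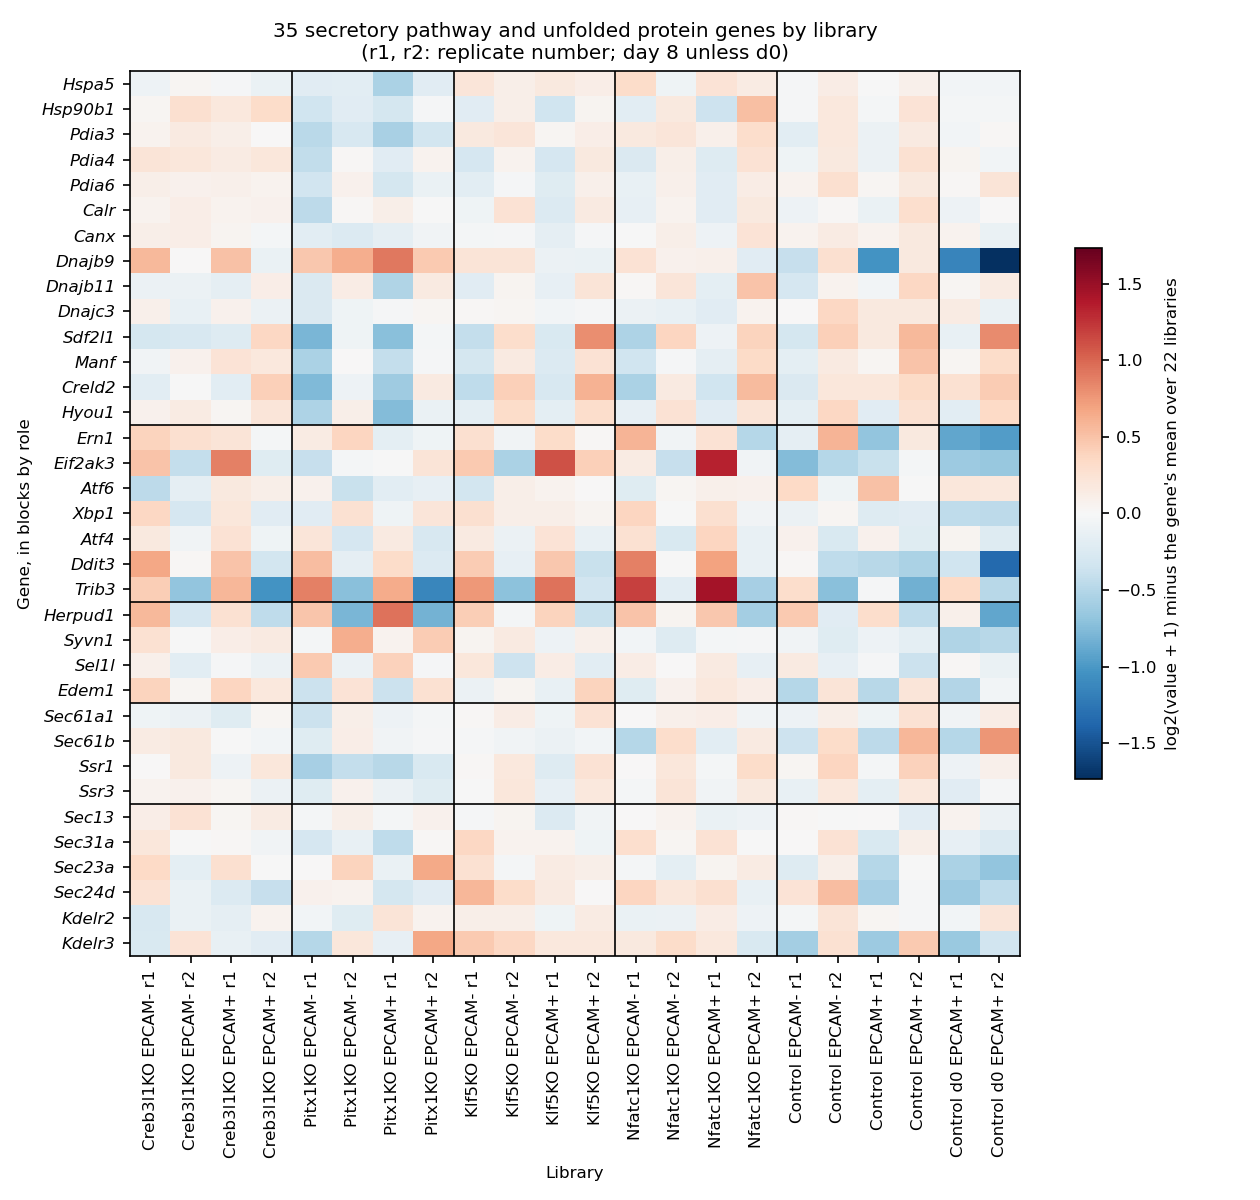
Log2(value + 1) of each member in each of the 22 libraries, minus the gene's mean over all libraries, with genes in blocks by role and libraries in columns by line, fraction and replicate. Trib3, Ddit3 and Herpud1 alternate between replicates 1 and 2 in every line, while no block of rows sets the 4 Creb3l1KO columns apart.

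In Creb3l1KO cells no member passed the test against the mean of the other 4 lines at day 8. Of the libraries compared, only those of EPCAM- Control cells held over 8 units of Creb3l1, at 137 and 26. Most of the other lines' libraries thus held little Creb3l1 RNA themselves. Of the 35 members, 0 were called over both fractions together, with limma and with its voom variant on recovered reads, against 1.85% of all genes tested (362 genes, 282 of them lower). In EPCAM- cells 0 members were called, against 0.424% of all genes. In EPCAM+ cells 0 were called, against 0.353%. With the replicate number as a block the count over both fractions was also 0, against 4.34% of all genes, and it was 0 with each of the 20 day 8 libraries left out. At an unadjusted p below 0.05 there was 1 member over both fractions, and there were 0 in EPCAM- and 0 in EPCAM+ cells. That member was Sec13, a coat protein of COPII vesicles, with a log2 change of 0.17 (unadjusted p = 0.0432, adjusted p = 0.345). In bulk RNA, fewer cells with a transcript and less of it per cell cannot be told apart.

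The differences were also small as means over both replicate numbers. Log2 changes ran from -0.23 to 0.27 with a median of 0.07, beside a median of 0.00 over all genes tested, and 22 of 35 were above 0. The 95% interval of the difference lay within 0.5 log2 units of 0 on both sides for 23 members and within 1 for 34. The exception was Trib3, whose interval ran from -1.28 to 0.81. The median SE was 0.13 for the members and 0.22 over all genes. For 0 of the members did the 4 Creb3l1KO libraries lie apart from the other 16, as they did for 0.639% of all genes. The replicate numbers did not always go together, which was not tested. In replicate 1, Hyou1, Pdia4 and Hsp90b1 were among members higher in both Creb3l1KO libraries than in any other day 8 library. Kdelr2 was lower than in any of them. In replicate 2 these genes lay within the range of the others. Hyou1 had 3784 and 3957 units in EPCAM- and 3694 and 4141 in EPCAM+ Creb3l1KO cells. The other lines held 2142 to 3272 in replicate 1 and 3317 to 4627 in replicate 2.

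Among chaperones and folding enzymes the median log2 change was 0.10, with 10 of 14 above 0. Hsp90b1 had 19733 and 23217 units in EPCAM- and 21823 and 23895 in EPCAM+ Creb3l1KO cells, against 14998 to 27578 with a median of 18871 in the 16 libraries of the other lines. Its values lay in the upper part of that range, and the log2 change of 0.25 ± 0.13 (SE) was not called (adjusted p = 0.413). Pdia4, a disulfide isomerase, had 7129 and 6982 units in EPCAM- and 6745 and 7031 in EPCAM+ Creb3l1KO cells, against 4553 to 7331 with a median of 6004 in the others. The 4 libraries lay close together, at 6972 ± 163 units, where the other lines spread over 5985 ± 883, and the log2 change of 0.23 ± 0.12 (SE) was not called (adjusted p = 0.411). Hspa5 averaged close to the other lines, with a median of 19315 units in Creb3l1KO libraries and 21436 in the others.

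The stress sensors and transcription factors had a median log2 change of 0.08, with 4 of 7 above 0. Trib3, a pseudokinase induced through ATF4 and CHOP, had 1043 and 484 units in EPCAM- and 1155 and 377 in EPCAM+ Creb3l1KO cells, against 354 to 2109 with a median of 722.5 in the others. Both ranges were wide and overlapped. The log2 change of -0.23 ± 0.49 (SE) was not called (adjusted p = 0.882), and it was 0.17 without replicate 2 of EPCAM+ Creb3l1KO and 0.04 without replicate 2 of EPCAM- Creb3l1KO. Xbp1, the target of IRE1, had 1167 to 1838 units in Creb3l1KO libraries and 1225 to 1850 in the others. Atf4 had 7377 to 9231 units in Creb3l1KO libraries and 6362 to 10019 in the others.

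In the degradation branch the median log2 change was 0.04, with 2 of 4 above 0. Edem1, a lectin that passes misfolded glycoproteins to degradation, had 2816 and 2219 units in EPCAM- and 2805 and 2445 in EPCAM+ Creb3l1KO cells, against 1542 to 2824 with a median of 2262 in the others. The replicate 1 libraries of Creb3l1KO sat at the top of the other lines' range and the replicate 2 libraries did not. The log2 change of 0.27 ± 0.17 (SE) was not called (adjusted p = 0.509). The translocon, the channel through which new proteins enter the ER, had a median of 0.04, with 3 of 4 above 0. Its most abundant member per kb, Ssr3, had 9352 to 10536 units in Creb3l1KO libraries and 8669 to 11742 in the others.

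The COPII coat and KDEL receptors had a median of -0.06, with 3 of 6 above 0. Sec24d, the COPII subunit that selects cargo, had 2231 and 1729 units in EPCAM- and 1591 and 1417 in EPCAM+ Creb3l1KO cells, against 1259 to 2787 with a median of 2029.5 in the others. The ranges overlapped, and the log2 change of -0.22 ± 0.11 (SE) was not called (adjusted p = 0.401).

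**Figure D2:**
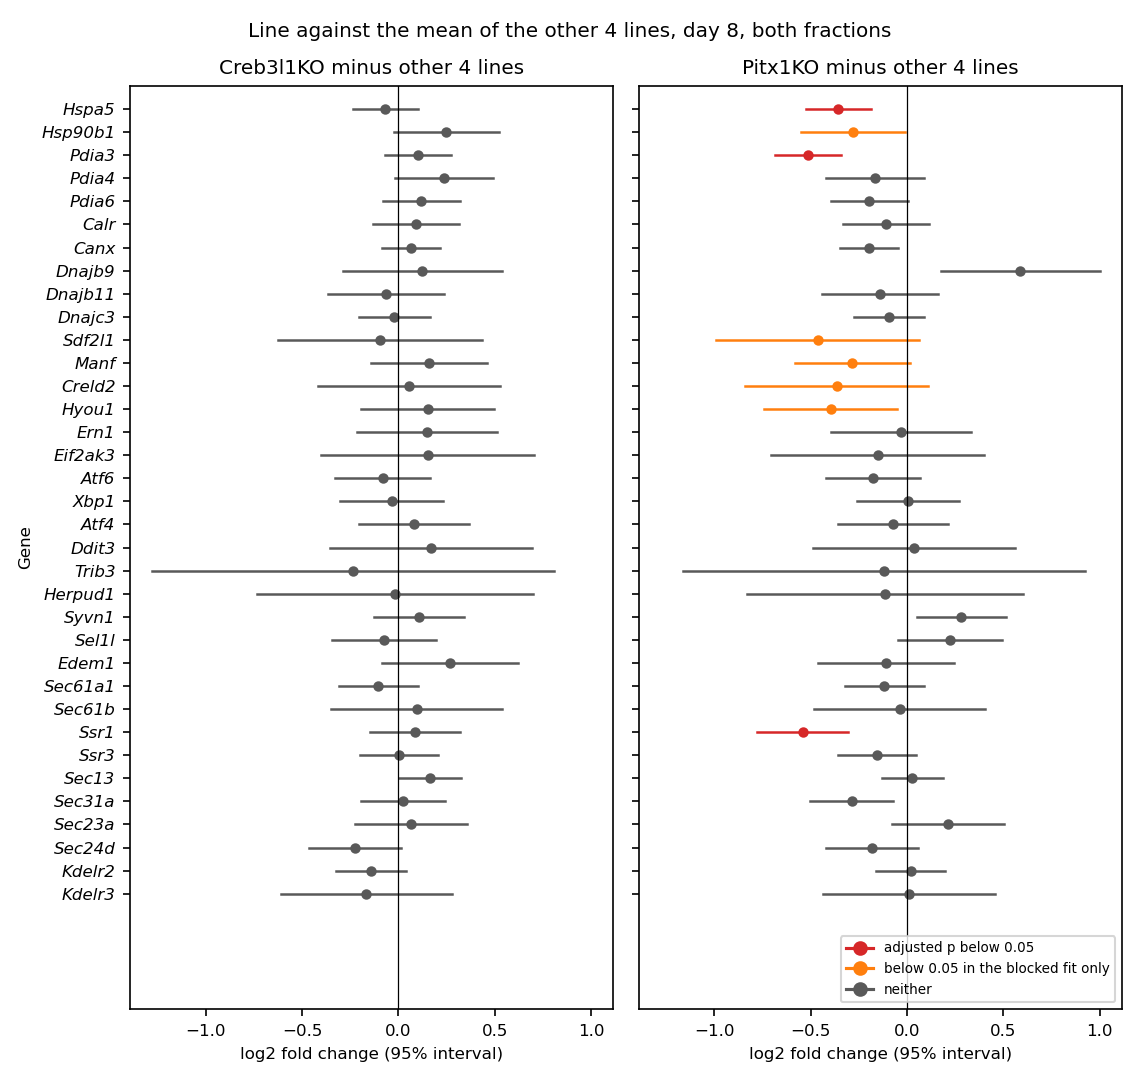
Log2 difference of each member from the mean of the other 4 lines at day 8, both fractions together, with 95% intervals, for Creb3l1KO on the left and Pitx1KO on the right. Red marks an adjusted p below 0.05, orange a call only with the replicate number as a block, and grey neither. All Creb3l1KO points are grey, between -0.23 and 0.27, while Hspa5, Pdia3 and Ssr1 are red for Pitx1KO.

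Against Control alone, Creb3l1KO cells also had 0 members called over both fractions, against 0.945% of all genes. In EPCAM- cells 0 were called, against 0.261%. In EPCAM+ cells 0 were called, against 0.194%. With voom the 3 counts were also 0, and at an unadjusted p below 0.05 there were 0 members in each. The median log2 change was 0.04, beside -0.01 over all genes. With the replicate block 1 member rose, Ddit3, against 2.27% of all genes.

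Ddit3, which encodes CHOP, had 622 and 397 units in EPCAM- and 550 and 314 in EPCAM+ Creb3l1KO cells, against 394 and 287 in EPCAM- and 280 and 266 in EPCAM+ Control cells. Each Creb3l1KO library was above the Control library of the same fraction and replicate, although the groups overlapped. The means were 471 ± 140 units in Creb3l1KO and 307 ± 58.8 in Control cells (n = 4 each), a log2 change of 0.58 ± 0.31 (SE) with an adjusted p of 0.508, and of 0.0373 with the block.

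Of the other members with the largest changes against Control, none was called in either fit. Eif2ak3, which encodes PERK, had 1176 and 627 units in EPCAM- and 1534 and 725 in EPCAM+ Creb3l1KO cells, against 496 and 594 in EPCAM- and 640 and 815 in EPCAM+ Control cells. Its replicate 1 libraries were high and its replicate 2 libraries were within the Control range (log2 change 0.60, adjusted p = 0.519). Dnajb9 had 727 and 494 units in EPCAM- and 700 and 452 in EPCAM+ Creb3l1KO cells, against 371 and 597 in EPCAM- and 238 and 553 in EPCAM+ Control cells. In replicate 2 the order was the reverse of that in replicate 1 (log2 change 0.49, adjusted p = 0.472). Edem1 had a log2 change of 0.38 (adjusted p = 0.531), from the Creb3l1KO values above against 1542 and 2516 in EPCAM- and 1548 and 2493 units in EPCAM+ Control cells.

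Sdf2l1, part of an ER chaperone complex, had 247 and 252 units in EPCAM- and 261 and 391 in EPCAM+ Creb3l1KO cells, against 246 and 406 in EPCAM- and 342 and 450 in EPCAM+ Control cells (log2 change -0.32, adjusted p = 0.76). Atf6 had 1412 and 1731 units in EPCAM- and 2162 and 2071 in EPCAM+ Creb3l1KO cells, against 2448 and 1823 in EPCAM- and 2731 and 1914 in EPCAM+ Control cells (log2 change -0.27, adjusted p = 0.511). For both genes the groups overlapped.

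The lines were next compared with Creb3l1KO singly. Against Pitx1KO, Pdia3 was higher in Creb3l1KO cells, 1 of 35 members called, where 3.82% of all genes were and 1.4% were higher. Pdia3 had 21699 and 23210 units in EPCAM- and 22304 and 20877 in EPCAM+ Creb3l1KO cells, against 15025 and 17129 in EPCAM- and 14038 and 16622 in EPCAM+ Pitx1KO cells. The groups did not overlap, which was not counted over all genes. The log2 change was 0.49 ± 0.10 (SE; adjusted p = 0.0111). Leaving out each of the 8 libraries in turn gave 0.43 to 0.55, with adjusted p between 0.0155 and 0.0615 and the call kept in 5 of 8. It was lost without Pitx1KO EPCAM+ replicate 1 (adjusted p = 0.0615), Pitx1KO EPCAM- replicate 1 (0.0604) or Creb3l1KO EPCAM+ replicate 1 (0.0559). With the replicate block 5 members were called, against 7.88% of all genes: Pdia3, Ssr1 (0.50, adjusted p = 0.000957, and 0.0563 without the block), Hyou1 (0.44, 0.0102), Hsp90b1 (0.42, 0.0207) and Manf (0.35, 0.0413).

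Against Klf5KO, 0 members were called with limma or voom and 1 had an unadjusted p below 0.05, where 1.35% of all genes were called. Against Nfatc1KO, 0 were called with limma or voom and 1 had an unadjusted p below 0.05, where 1.17% of all genes were called. With the block, Trib3 was lower in Creb3l1KO than in Nfatc1KO cells, at a mean of 765 units in Creb3l1KO and 1268 in Nfatc1KO libraries (log2 change -0.64, adjusted p = 0.0446), where 3.55% of all genes were called. The Nfatc1KO libraries held 1760 and 682 units of Trib3 in EPCAM- and 2109 and 519 in EPCAM+ cells, so that replicate 1 was high in both fractions.

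In Pitx1KO cells, set against the mean of the other 4 lines, 3 members fell, Hspa5, Pdia3 and Ssr1, and 0 rose. That is 8.57% of the members, where 5.93% of all genes were called and 2.94% fell. The share called is near the 5.93% of all genes called and above the 2.94% of all genes that fell, and the members were not tested as a set. Leaving out each day 8 library gave 1 to 4 members. The median log2 change of the members was -0.12, beside 0.04 over all genes. For these 3 members the 4 Pitx1KO libraries lay entirely below the other 16, and the groups did not overlap for 1.89% of all genes. The RNA of the targeted gene Pitx1 stood at 1205 to 1627 units in Pitx1KO libraries and at 3956 to 6438 in the other day 8 libraries.

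Pdia3 had the Pitx1KO values above, against 18338 to 25629 units with a median of 22845 in the other 16 libraries. The means were 15704 ± 1427 units in Pitx1KO (n = 4) and 22416 ± 1813 in the other libraries (n = 16), a log2 change of -0.51 ± 0.08 (SE; adjusted p = 0.00103). The call held with each of the 20 day 8 libraries left out. Ssr1, a subunit of the translocon-associated complex, had 3950 and 4396 units in EPCAM- and 4204 and 4878 in EPCAM+ Pitx1KO cells, against 5026 to 7739 with a median of 6285 in the others. The highest Pitx1KO library was below the lowest of the others, and the log2 change was -0.54 ± 0.11 (SE; adjusted p = 0.00775). The adjusted p was 0.0696 without EPCAM+ replicate 1 and 0.0619 without EPCAM- replicate 1 of Pitx1KO.

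Hspa5, the central ER chaperone, whose promoter with its ERSE is shown above, had 17479 and 17755 units in EPCAM- and 13788 and 17536 in EPCAM+ Pitx1KO cells. The other 16 libraries held 18615 to 25067 units with a median of 21436. EPCAM+ replicate 1 was the lowest of all, and the log2 change was -0.36 ± 0.08 (SE; adjusted p = 0.0136). Without it the log2 change was -0.27 and the adjusted p 0.137. The adjusted p was 0.0768 without EPCAM- replicate 1 and 0.0562 without EPCAM- replicate 2 of Pitx1KO.

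**Figure D3:**
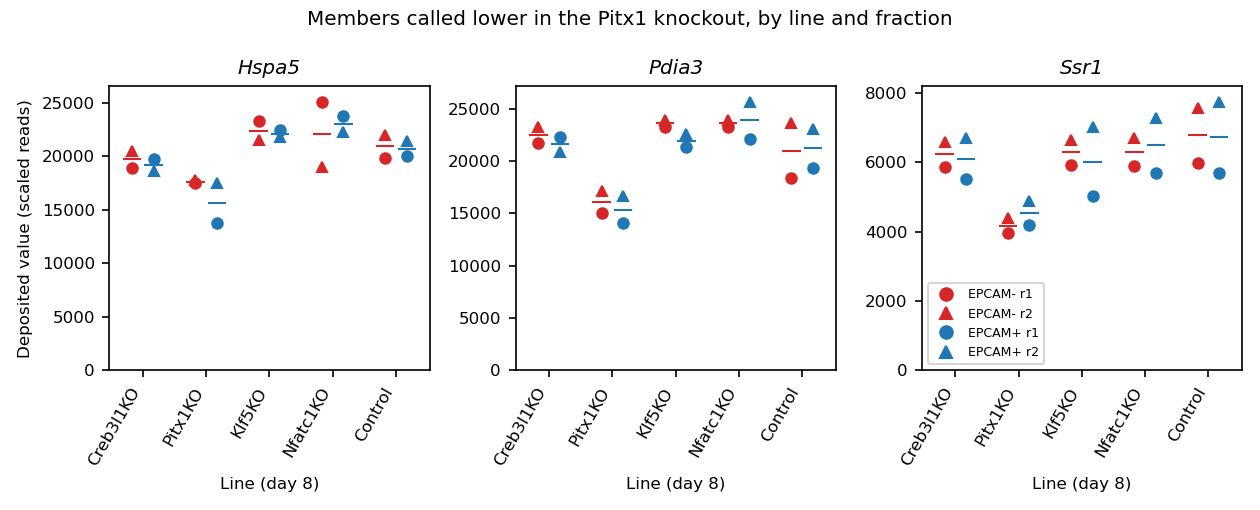
Values of Hspa5, Pdia3 and Ssr1 in each library by line, in scaled units, with red for EPCAM-, blue for EPCAM+, circles for replicate 1, triangles for replicate 2 and a bar at the mean of 2. For Pdia3 the Pitx1KO libraries lie between 14038 and 17129, below every other library, the lowest of which is at 18338.

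With the replicate block 8 members fell in Pitx1KO cells, 22.9% of the members against 10.3% of all genes called and 4.7% lower. The 5 added were Sdf2l1 (-0.46, adjusted p = 0.0218), Hyou1 (-0.40, 0.00299), Creld2 (-0.37, 0.0483), Manf (-0.28, 0.0313) and Hsp90b1 (-0.28, 0.0425). Of the 8, 7 were chaperones or folding enzymes and 1 a translocon gene. Dnajb9 had 677 and 759 units in EPCAM- and 926 and 671 in EPCAM+ Pitx1KO cells, against 238 to 727 with a median of 517.5 in the others, and was not called (0.59, adjusted p = 0.0931). The 35 members together took 0.709 to 0.785% of a Pitx1KO library, against 0.807 to 0.958% of the other day 8 libraries. Creb3l1KO libraries lay within the range of those others, at 0.861 to 0.888%. This share weighs the most abundant members most. The mean log2 level of the 35 members overlapped, at 11.06 to 11.20 in Pitx1KO and 11.07 to 11.35 in the other day 8 libraries. The Epcam and Vim differences between Pitx1KO and the other lines were 0.20 (adjusted p = 0.837) and 0.34 (adjusted p = 0.544) in log2. Between Creb3l1KO and the other lines they were 0.57 (adjusted p = 0.512) and -0.74 (adjusted p = 0.212). Vim had 30486 and 36078 units in EPCAM- Creb3l1KO cells, against 41775 to 67534 in the other EPCAM- libraries. The part of such differences in the members' levels was not tested.

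Against Control alone Pdia3 (-0.42, adjusted p = 0.0269) and Ssr1 (-0.62, 0.0174) fell in Pitx1KO cells, where 4.28% of all genes were called. In a model of the compared groups alone both calls were lost and 0 members were called. They were also lost without replicate 1 of either Pitx1KO fraction or replicate 2 of either Control fraction, with adjusted p of 0.101 to 0.114 for Pdia3 and 0.0655 to 0.0769 for Ssr1. With the replicate block 9 members were called, against 8.77% of all genes. Of these, 7 fell, among them Hspa5 (adjusted p = 0.0415), Pdia6 (0.0356) and Hyou1 (0.0188). Dnajb9 (0.86, adjusted p = 0.0437) and Ddit3 (0.48, 0.0426) rose. Any difference among the 5 lines was called for 1 member, Pdia3 (adjusted p = 0.00833), against 5.54% of all genes, and for 6 with the block, against 13.2%. Without Pitx1KO EPCAM+ or EPCAM- replicate 1 it was called for 0.

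The remaining lines were compared in the same way. Klf5KO against Control gave 0 members called with limma or voom and 1 at an unadjusted p below 0.05, where 0.557% of all genes were called. Nfatc1KO against Control gave 0 with limma or voom and 2 at an unadjusted p below 0.05, where 0.046% of all genes were called. With the block Ddit3 (0.72, adjusted p = 0.0248) and Trib3 (0.79, 0.0368) rose in Nfatc1KO, against 0.95% of all genes. Control against the mean of the 4 knockout lines gave 0 members with limma or voom and 6 at an unadjusted p below 0.05, where 0.659% of all genes were called. With the block Ddit3 fell in Control by 0.56 in log2 (adjusted p = 0.0123, and 0.336 without the block), where 2.99% of all genes were called. Ddit3 averaged 307 ± 58.8 units in the 4 Control libraries and 464 ± 131 in the 16 others. These comparisons share the Control libraries with those above and are not independent of them.

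Of the other genes of the pathway, 117 were tested of 121 listed. In Creb3l1KO against the other lines 2 fell and 0 rose, a share near the 1.85% of all genes called. Edem2, a mannosidase of ER-associated degradation, had a mean of 558 units in Creb3l1KO libraries and 798 in the others (-0.50, adjusted p = 0.0265). Copz2, a COPI coat subunit, had 16.8 units in Creb3l1KO libraries and 48.2 in the others (-1.44, adjusted p = 0.041). With the block 7 were called, 2 higher and 5 lower, where 4.34% of all genes were. The count was 0 without EPCAM+ replicate 1, EPCAM+ replicate 2 or EPCAM- replicate 2 of Creb3l1KO. Against Control Stx5a, a SNARE protein of the Golgi, rose to 1182 units in Creb3l1KO cells, against 795 in Control cells (0.57, adjusted p = 0.0494), 1 of 117 where 0.945% of all genes were called. With the block 3 genes rose, where 2.27% of all genes were called. The call of Stx5a was lost without any of the 4 Creb3l1KO libraries or replicate 1 of either Control fraction. Of the 6 genes of the CREB3 family and its site proteases 0 were called in either fit.

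In Pitx1KO, 8 of the 117 genes were called against the other lines, 2 higher and 6 lower, a share near the 5.93% of all genes. With the block 21 were called, 10 higher and 11 lower, where 10.3% of all genes were. The count was 1 without EPCAM+ replicate 1 and 0 without EPCAM- replicate 1 of Pitx1KO. Txndc5, a thioredoxin-domain isomerase, fell to 3589 units in Pitx1KO cells, against 5343 in the other lines (-0.59, adjusted p = 0.00374). Tmed9, a cargo receptor of ER-to-Golgi transport, fell to 1541 units, against 2216 (-0.52, adjusted p = 0.00571). Fkbp7, a prolyl isomerase, fell to 27.0 units, against 63.2 (-1.06, adjusted p = 0.0285). Dnajc10, an ER disulfide reductase, rose to 6635 units, against 5002 (0.41, adjusted p = 0.00867), and Copz2 rose to 74.0 units, against 33.9 (1.41, adjusted p = 0.0217).

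Between the sorted fractions, Sec24d rose in EPCAM- cells and no other member was called. With 1 of 35 members called the share was 2.86%, where 6.22% of all genes were called and 2.74% were higher. Sec24d, which carries the UPRE shown above, had 2231 and 1729 units in EPCAM- and 1591 and 1417 in EPCAM+ Creb3l1KO cells. Over the 5 lines it had 1729 to 2787 units with a median of 2217 in the 10 EPCAM- libraries, and 1259 to 2262 with a median of 1681 in the 10 EPCAM+ libraries. It was higher in EPCAM- cells in 10 of 10 pairs of the same line and replicate. The means were 2250 ± 333 units in EPCAM- and 1721 ± 304 in EPCAM+ libraries (n = 10 each), a log2 change of 0.39 ± 0.09 (SE; adjusted p = 0.0132), and 0.34 to 0.45 with each of the 20 day 8 libraries left out, each time called.

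The fractions were also compared with a block for each replicate within its line, which uses the 10 pairs of fractions. Of the members 7 were then called, 20.0%, where 22.7% of all genes were. Sec24d and Ern1 rose, and Eif2ak3, Sdf2l1, Creld2, Manf and Atf6 fell. Ern1, which encodes IRE1, had 1029 to 1729 units with a median of 1394 in EPCAM- and 718 to 1437 with a median of 1142 in EPCAM+ libraries (0.28, adjusted p = 0.00032, and 0.277 without this block). Eif2ak3 had 496 to 1176 units with a median of 632.5 in EPCAM- and 640 to 2106 with a median of 904 in EPCAM+ libraries (-0.52, adjusted p = 1.1e-05, and 0.175 without this block). Among the sensors, Ern1 thus rose while Eif2ak3 and Atf6 fell, and the groups of Ern1 and of Eif2ak3 overlapped. Only in Klf5KO was Ern1 lower in EPCAM- cells, at 1390 and 1105 units against 1437 and 1166 in EPCAM+ cells.

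In single lines the test without a block called 0 members, where it called 0.291% of all genes in Creb3l1KO, 0.317% in Pitx1KO, 0.286% in Klf5KO, 0.429% in Nfatc1KO and 0.644% in Control. With the within-line block 0 members were called in Creb3l1KO, where 3.19% of all genes were, and 0 in Pitx1KO, where 4.79% were. Eif2ak3 fell in EPCAM- cells of Klf5KO, with 1150 and 573 units against 1793 and 1110 in EPCAM+ cells (-0.80, adjusted p = 0.00567), where 2.19% of all genes were called. It also fell in Nfatc1KO, with 924 and 632 units in EPCAM- against 2106 and 803 in EPCAM+ cells (-0.77, adjusted p = 0.00478), where 6.08% were called. In Control, Ern1 had 1029 and 1729 units in EPCAM- cells, against 718 and 1292 in EPCAM+ cells (0.47, adjusted p = 0.013), where 7.01% were called. Control Sec24d had 2203 and 2722 units in EPCAM- and 1259 and 1847 in EPCAM+ cells (0.68, adjusted p = 0.000511). Whether the fractions differed by another amount in Creb3l1KO than in the other 4 lines was tested with an interaction term, which called 0 members and 0 genes (limma, and 0 members with voom), with 0 members at an unadjusted p below 0.05.

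**Figure D4:**
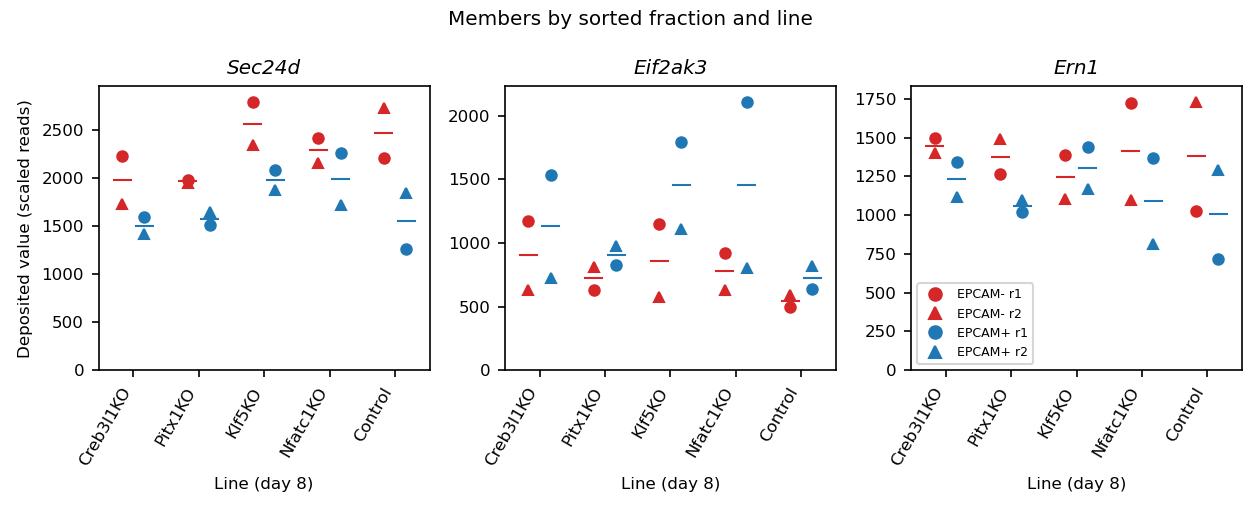
Values of Sec24d, Eif2ak3 and Ern1 in each library by line, in scaled units, with red for EPCAM-, blue for EPCAM+, circles for replicate 1, triangles for replicate 2 and a bar at the mean of 2. Sec24d is higher in EPCAM- than in EPCAM+ cells in all 10 pairs of libraries.

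The fractions differed in cell state as sorted. The summed level of the epithelial marker list was 16056 to 26405 units in EPCAM- and 34372 to 59993 in EPCAM+ libraries, and that of the mesenchymal list 120533 to 179587 units in EPCAM- and 24964 to 138375 in EPCAM+ libraries. Fibroblast markers summed to 668 to 5007 units in EPCAM- and 90 to 888 in EPCAM+ libraries. Over all libraries immune markers summed to 141 to 360 units, and 3 of the 9 listed reached 10 units in a library. Endothelial markers summed to 68 to 431 units, and 3 of the 7 listed reached 10. The immune marker Csf1r had 91 to 277 units and the endothelial Pecam1 53 to 157, while Ptprc had 0 to 9. The part of these markers in the Sec24d difference was not tested. Of the 117 other pathway genes 2 were called, where 6.22% of all genes were. Copz2 rose in EPCAM- cells (54.4 units, against 29.4, log2 change 1.08, adjusted p = 0.0253). Derl1, a channel protein of ER-associated degradation, fell (1738 units, against 2155, log2 change -0.32, adjusted p = 0.0251). The count was 0 without Control EPCAM- replicate 1 or Creb3l1KO EPCAM+ replicate 2. With the within-line block 27 of the 117 were called, a share near the 22.7% of all genes.

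In EPCAM+ Control cells, no member passed the test of day 8 against day 0, which called 0 members and 0 genes with limma and 0 members with voom. At an unadjusted p below 0.05 there were 2 members. Dnajb9 had 238 and 553 units at day 8 and 222 and 147 at day 0 (log2 change 1.00, unadjusted p = 0.0108, adjusted p = 1). Ern1 had 718 and 1292 units at day 8 and 617 and 586 at day 0 (0.68, unadjusted p = 0.0414, adjusted p = 1). In both genes the difference was larger in replicate 2 than in replicate 1.

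More members were called between the replicate numbers, which equal a batch tag in the labels, than in the comparisons of lines or fractions above. This comparison was added after the values were seen. Of the 35 members 18 were called between replicate 1 and replicate 2 over all 11 groups, 51.4%, where 20.2% of all genes were. Of the 18, 5 were higher in replicate 1 and 13 lower, where 9.25% and 11.0% of all genes were. The 2 fractions of a line with the same number may share a culture, so the 11 pairs may not be independent.

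The 5 members higher in replicate 1 were Atf4, the ATF4 targets Trib3 and Ddit3, and Herpud1 and Sel1l of ER-associated degradation, each in 11 of 11 groups. Trib3 had 763 to 2109 units with a median of 1208 in replicate 1 and 354 to 682 with a median of 474 in replicate 2. The numbers did not overlap, and the log2 difference was 1.35 ± 0.10 (SE; adjusted p = 8.95e-07). Herpud1, an ER membrane protein that assists degradation, had 1211 to 2172 units with a median of 1556 in replicate 1 and 608 to 1168 with a median of 838 in replicate 2 (0.88, adjusted p = 2.49e-05). Ddit3 had 280 to 712 units with a median of 541 in replicate 1 and 153 to 397 with a median of 331 in replicate 2 (0.67, adjusted p = 7.24e-05). Atf4 had 8028 to 10019 units with a median of 8733 in replicate 1 and 6362 to 7467 with a median of 6681 in replicate 2 (0.37, adjusted p = 8.65e-05). The ranges of Herpud1 and Atf4 did not overlap, and those of Ddit3 did. How many of all genes did not overlap, or kept 1 order in 11 of 11 groups, was not counted. Sel1l, the partner of the ligase Syvn1, was higher by 0.31 in log2 (adjusted p = 0.0014).

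Chaperones and translocon genes moved the other way. Of the 14 chaperones and folding enzymes 9 were lower in replicate 1 and 0 higher, and of the 4 translocon genes 3 were lower. The chaperone difference was smallest in Creb3l1KO cells, which was not tested. There the mean log2 level of the 14 was 11.913 and 11.920 in EPCAM- and 11.935 and 11.985 in EPCAM+ cells. In day 8 Control cells it was 11.741 and 12.082 in EPCAM- and 11.803 and 12.138 in EPCAM+ cells. In day 0 EPCAM+ Control cells it was 11.79 and 11.89, also closer together than in day 8 Control cells. Sdf2l1 had 176 to 342 units with a median of 247 in replicate 1 and 252 to 541 with a median of 394 in replicate 2 (-0.66, adjusted p = 0.000168). Creld2, a secreted chaperone-like protein, had 406 to 825 units with a median of 567 in replicate 1 and 645 to 1049 with a median of 864 in replicate 2 (-0.57, adjusted p = 0.000245). Hyou1, the large ER chaperone GRP170, had 2142 to 3784 units with a median of 3189 in replicate 1 and 3317 to 4627 with a median of 4270 in replicate 2 (-0.43, adjusted p = 0.000118). These 3, Dnajb11 and Ssr1 were lower in 11 of 11 groups. The other 8 lower members had log2 differences of -0.40 (Sec61b) to -0.18 (Ssr3).

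Several members did not differ by the test. Hspa5 differed by 0.00 in log2 between the numbers (adjusted p = 0.997), with a median of 19828 units in replicate 1 and 20515 in replicate 2. Xbp1 differed by 0.10, Atf6 by 0.05 and Ern1 by 0.05, and Eif2ak3 by 0.40 (adjusted p = 0.133), and none was called. Of the 6 genes of the COPII coat and KDEL receptors 0 were called. Leaving out each of the 22 libraries gave 15 to 19 calls; Edem1 was called in 8, Sec61b in 15 and Ssr3 in 6 of the 22, and the other 15 in all.

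**Figure D5:**
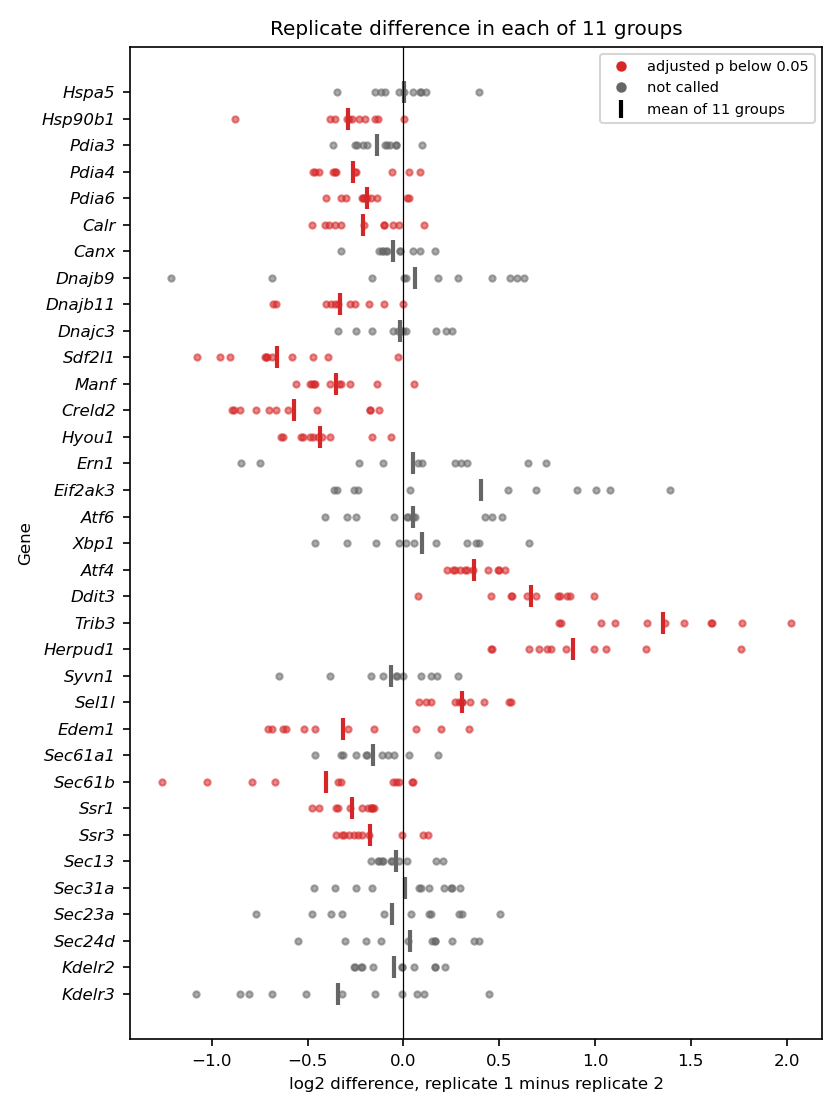
Log2 difference of replicate 1 minus replicate 2 for each member, with a point for each of the 11 groups, a tick at their mean and red for members called. Trib3, Herpud1, Ddit3, Atf4 and Sel1l lie above 0 in all 11 groups, and Sdf2l1, Creld2, Hyou1, Dnajb11 and Ssr1 below 0 in all 11.

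Genes of the pathway outside the members were counted in the same way. Of 19 tested genes listed as PERK and ATF4 targets 15 were higher in replicate 1 and 0 lower, with a median log2 difference of 0.86. PERK activity was not measured. Slc7a11, the cystine transporter, had 853 to 1806 units with a median of 1203 in replicate 1 and 164 to 946 with a median of 381 in replicate 2 (1.67, adjusted p = 0.000146). Atf5, a transcription factor, had 870 to 2821 units with a median of 1388 in replicate 1 and 410 to 780 with a median of 537 in replicate 2 (1.40, adjusted p = 3.3e-06). Of 20 other ER folding enzymes 6 were lower and 0 higher, and over all pathway lists 35 of 117 were called, 21 higher and 14 lower, where 20.2% of all genes were called, 9.25% higher and 11.0% lower.

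Other lists moved with the number too. The summed level of immediate-early genes was 16953 to 40661 units with a median of 22523 in replicate 1 and 9365 to 18352 with a median of 13584 in replicate 2. Cytosolic heat shock genes had a median sum of 65502 units in replicate 1 and 75877 in replicate 2. Their part in the members' difference was not tested. What differed between the numbers in culture, sorting or library preparation cannot be told apart, and within a replicate number each group has 1 library.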

How the data were processed

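Total RNA of sorted cells was extracted with the RNeasy micro kit and made into Ovation Solo libraries, per the labels' protocols. FastQC, Trimmomatic, STAR, Picard and HTSeq with GRCm38/mm10 are named, without versions, per the submitters' processing notes. The deposited values are treated as a score: the authors name them normalised counts, and their unit was read from the values, which are whole numbers with a nearly common total and low steps that mark single reads. They were not scaled again.

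The filter kept the 19569 genes that reached 10 units in 2 or more libraries, which were tested with limma 3.58.1 in R 4.3.3, with a trend and a robust prior, 11 residual and a median of 5.63 prior degrees of freedom, over 24 contrasts; the data.table package was version 1.17.8. Python 3.11.15, numpy 2.4.6, pandas 2.3.3 and matplotlib 3.10.9 prepared values and figures. Positions came from GENCODE M21, which held 99.3% of the gene identifiers. The test was also tested on simulated data.

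The replicate number equals the labels' batch tag, which pairs the libraries. The difference between replicate numbers was compared across groups. Over all genes 36 of 55 pairs of groups had a correlation above 0.1 (median 0.146), and over the 35 members 55 of 55 did (median 0.667). A fit with the number as a block had 10 residual degrees of freedom.

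The members and gene lists were chosen with earlier results of these data known. All members may be named. Values by library are given for members called and for up to 5 further members per comparison with the largest change. From the pathway lists, up to 5 called genes per comparison are named. Alternatives were other scalings (TMM and median of ratios), pseudocounts, no filter, voom on recovered reads, blocks, only the compared groups and each library left out.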

Additional observations from a re-analysis of the deposited data

Results flagged for a closer look

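The effects of the Creb3l1 and the Pitx1 knockout against Control differed for Pdia3. The log2 difference between them equals Creb3l1KO minus Pitx1KO because the Control libraries are shared. It was 0.49 ± 0.10 (SE; limma, adjusted p = 0.0111), where 3.82% of all genes were called. The call did not hold with every library left out, as given above. The 4 Creb3l1KO libraries all lay above the 4 Pitx1KO libraries, and the share of all genes set apart in this way was not counted. Pdia3 against Control was not called in Creb3l1KO and fell in Pitx1KO.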

How the results depend on the processing

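With 2 libraries a group and 6054932 to 9882748 reads each, the precision allowed 95% intervals within 0.5 log2 units of 0 for 23 of 35 members in Creb3l1KO against the rest. Of the single-gene results under alternatives, 1406 kept direction and side of the threshold, 57 lost the call, 30 gained it and 5 reversed, none of the reversed ones called. Reversed were Trib3 in Creb3l1KO against the other lines without replicate 2 of EPCAM+ (0.17) or of EPCAM- (0.04) Creb3l1KO (range -0.64 to 0.17), Trib3 at day 8 against day 0 without day 0 replicate 1 (0.042) or day 8 replicate 2 (range -0.78 to 0.042), and Kdelr3 there without day 8 replicate 2 (-0.14, range -0.14 to 0.94). No scaling moved the median of all genes by 0.1 log2 units.

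Counts of calls changed as follows, and the cause was not tested. With the replicate block members called were 1 (Creb3l1KO against Control), 5 (against Pitx1KO), 1 (against Nfatc1KO), 9 (Pitx1KO against Control), 2 (Nfatc1KO against Control), 8 (Pitx1KO against the rest), 1 (Control against the rest) and 6 (any line), and other pathway genes 7, 3, 21 and 4 (Creb3l1KO against the rest and Control, Pitx1KO against the rest, fractions); it changed no other count by over 1.5 times. With a block within each line the fractions gave 7 members and 27 pathway genes, and Klf5KO, Nfatc1KO and Control alone gave 1, 1 and 2 members. For any line, TMM gave 3, median of ratios 2, a pseudocount of 0.5 2, no filter 3 and voom 2 members. Both scalings gave 2 members for Creb3l1KO against Pitx1KO. For pathway genes in Creb3l1KO against the rest, median of ratios and voom gave 1, and against Control no filter, voom and only the compared groups gave 0. Only the compared groups gave 0 members for Pitx1KO against Control.

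Where a library was left out, its lone partner was assumed to vary like the other groups. Leaving out each library gave 0 to 1 members for Creb3l1KO against Pitx1KO, 0 to 3 for Pitx1KO against Control, 1 to 4 for Pitx1KO against the rest, 0 to 2 for any line and 15 to 19 between replicate numbers. For pathway genes it gave 0 to 3 (Creb3l1KO against the rest), 0 to 1 (against Control), 0 to 9 (Pitx1KO against the rest) and 0 to 3 (fractions).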
